A study of Malus domestica with 36 samples.

Results

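CIPK17 (LOC103439416), SnRK2.3 (LOC103402785) and SnRK2.8 (LOC103448631) are 3 protein kinase genes of apple (Malus domestica) that belong to stress signalling families. They were picked by name from the 57423 genes of an expression table, after their levels across all 12 groups of the study had been seen. Their levels are therefore described below without any test. The table covers the peel of stored 'Granny Smith' apples, sequenced as 36 libraries in 12 groups of 3 biological replicates lettered a, b and c. Every group is of the same cultivar and tissue, and differs from the others in storage regime, time or the tag SL. RA is not spelled out in the labels, ULO was kept at 1% oxygen, and DCA_CF was kept at an oxygen level below 1%. Each regime was sampled at T1 and T2, without and with SL. The labels give no storage length for T1 or T2, no meaning for SL and no number of fruits per library. The term low oxygen stands for ULO and DCA_CF, and a low oxygen value is the mean of both set against RA.

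CIPKs (CBL-interacting protein kinases) are the kinase component of a calcium relay. A calcineurin B-like protein (CBL) binds calcium, attaches to a CIPK and releases it from its own inhibition, and the pair then phosphorylates ion channels, transporters and other targets. SnRK2 kinases act in the response to water stress, and in Arabidopsis part of the family carries the signal of abscisic acid (ABA), a hormone of drought and ripening. With no ABA present, PP2C phosphatases hold those SnRK2 kinases inactive, and receptors that have bound ABA block the phosphatases. Apple family numbers follow naming within apple, so SnRK2.3 or CIPK17 of apple need not be the counterpart of the Arabidopsis gene with that number.

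All values are in FPKM, a read level per gene length and library size, as the authors deposited them. Library totals lay between 689868 and 790211 FPKM, and 33512 to 37276 genes had a value above 0. Read totals are not given with such values, so depth is unknown. The peel label was checked against markers named in the table: AFS1, the farnesene synthase of apple peel, had group means between 249 and 1339 FPKM, and the lipid transfer protein allergen gene MALD3 had 1856 to 32820 FPKM. The cuticle markers SHN, CER, KCS, GPAT6, LACS2 and CUS1 are not named in the table. Of the markers of other tissues, the petal gene PI was listed at 0 in every library, while the flower gene AP1 had group means of 11.7 to 69.7 FPKM and the fruit softening gene PG1 had 9.34 to 327 FPKM. In bulk peel, fewer cells of a type and less RNA per cell cannot be told apart. Libraries were made without strand information, so a gene's value includes any antisense reads, and similar kinase genes can share reads.

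All 3 kinase genes had a value above 0 in 36 of 36 libraries. CIPK17 was the most abundant, with a mean of 165 FPKM over the libraries and a range of 48.9 to 325 FPKM. SnRK2.3 had a mean of 23.4 FPKM, from 11.6 to 38.6, and SnRK2.8 had a mean of 16.9 FPKM, from 8.10 to 39.9. By their mean level they stood among the 32923 genes kept for the tests at percentile 98.2 for CIPK17, 82.9 for SnRK2.3 and 77.0 for SnRK2.8. Their replicates lay close together: the coefficient of variation within a group had a median of 1.09% for CIPK17, 2.27% for SnRK2.3 and 5.56% for SnRK2.8. The SnRK2.8 groups reached 16.4%, so its small differences carry more error.

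CIPK17 was lowest in RA without SL and higher in each group that had low oxygen, SL or both. At T1 without SL, the 3 RA libraries had 70.9, 69.7 and 71.1 FPKM. The ULO libraries had 123, 120 and 121 FPKM, and the DCA_CF libraries had 164, 165 and 167 FPKM. The 3 regimes did not overlap, and DCA_CF was the highest of them. With SL at T1, RA libraries had 187, 182 and 178 FPKM, ULO libraries had 325, 324 and 323 FPKM, and DCA_CF libraries had 274, 278 and 273 FPKM. Here ULO, not DCA_CF, was the highest regime, and its mean of 324 ± 0.907 FPKM (SD, n = 3) was the top of all 12 groups.

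At T2 the same gene was lower in every regime. Without SL, RA libraries had 50.5, 51.1 and 48.9 FPKM, ULO libraries had 112, 109 and 112 FPKM, and DCA_CF libraries had 88.0, 86.3 and 87.7 FPKM. RA was again the lowest regime, and ULO was now above DCA_CF. With SL, RA libraries had 136, 137 and 133 FPKM, ULO libraries had 234, 234 and 235 FPKM, and DCA_CF libraries had 228, 228 and 222 FPKM. The 2 low oxygen regimes with SL were next to each other at T2, yet their libraries did not overlap.

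The full order of CIPK17 ran from T1_ULO_SL (324 FPKM) through T1_DCA_CF_SL (275), T2_ULO_SL (234), T2_DCA_CF_SL (226), T1_RA_SL (182), T1_DCA_CF (165), T2_RA_SL (135), T1_ULO (121), T2_ULO (111), T2_DCA_CF (87.3) and T1_RA (70.6) to T2_RA (50.1). In FPKM as deposited no neighbours in this order overlapped, and the top group was 6.46 times the lowest. After division by RLE (median of ratios) factors, 1.19 in library a of T2_DCA_CF and 0.948 in library c of T1_RA, these 2 groups overlap. The log2 range of the CIPK17 group means was 2.67, at percentile 83.6 of all tested genes, whose median range was 1.41. The SL groups were higher than their partners without SL in 6 of 6 pairs, by 1.66 to 2.70 times. ULO was above RA in 4 of 4 pairs, by 1.72 to 2.22 times, and DCA_CF was above RA in 4 of 4, by 1.51 to 2.34 times. T2 was below T1 in 6 of 6 pairs, at 0.528 to 0.917 of the T1 level. Libraries of the compared groups did not overlap in any of these pairs.

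On the log2(FPKM + 1) scale, which is used for all differences here, CIPK17 was 1.36 higher with SL in RA at T1 and 1.41 higher in RA at T2, each with a standard error (SE) of 0.0189. In ULO the SL difference was 1.41 at T1 and 1.07 at T2, and in DCA_CF it was 0.73 at T1 and 1.36 at T2. DCA_CF at T1 thus had the smallest SL difference of the 6, and it was also the group without SL that had the highest level. Low oxygen was 0.995 ± 0.0163 (SE) above RA at T1 and 0.96 above at T2 without SL, and 0.71 and 0.76 above with SL. Between the low oxygen regimes the sign was not constant, since DCA_CF minus ULO was 0.44 at T1 without SL, -0.24 at T1 with SL, -0.34 at T2 without SL and -0.053 at T2 with SL.

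**Figure D1:**
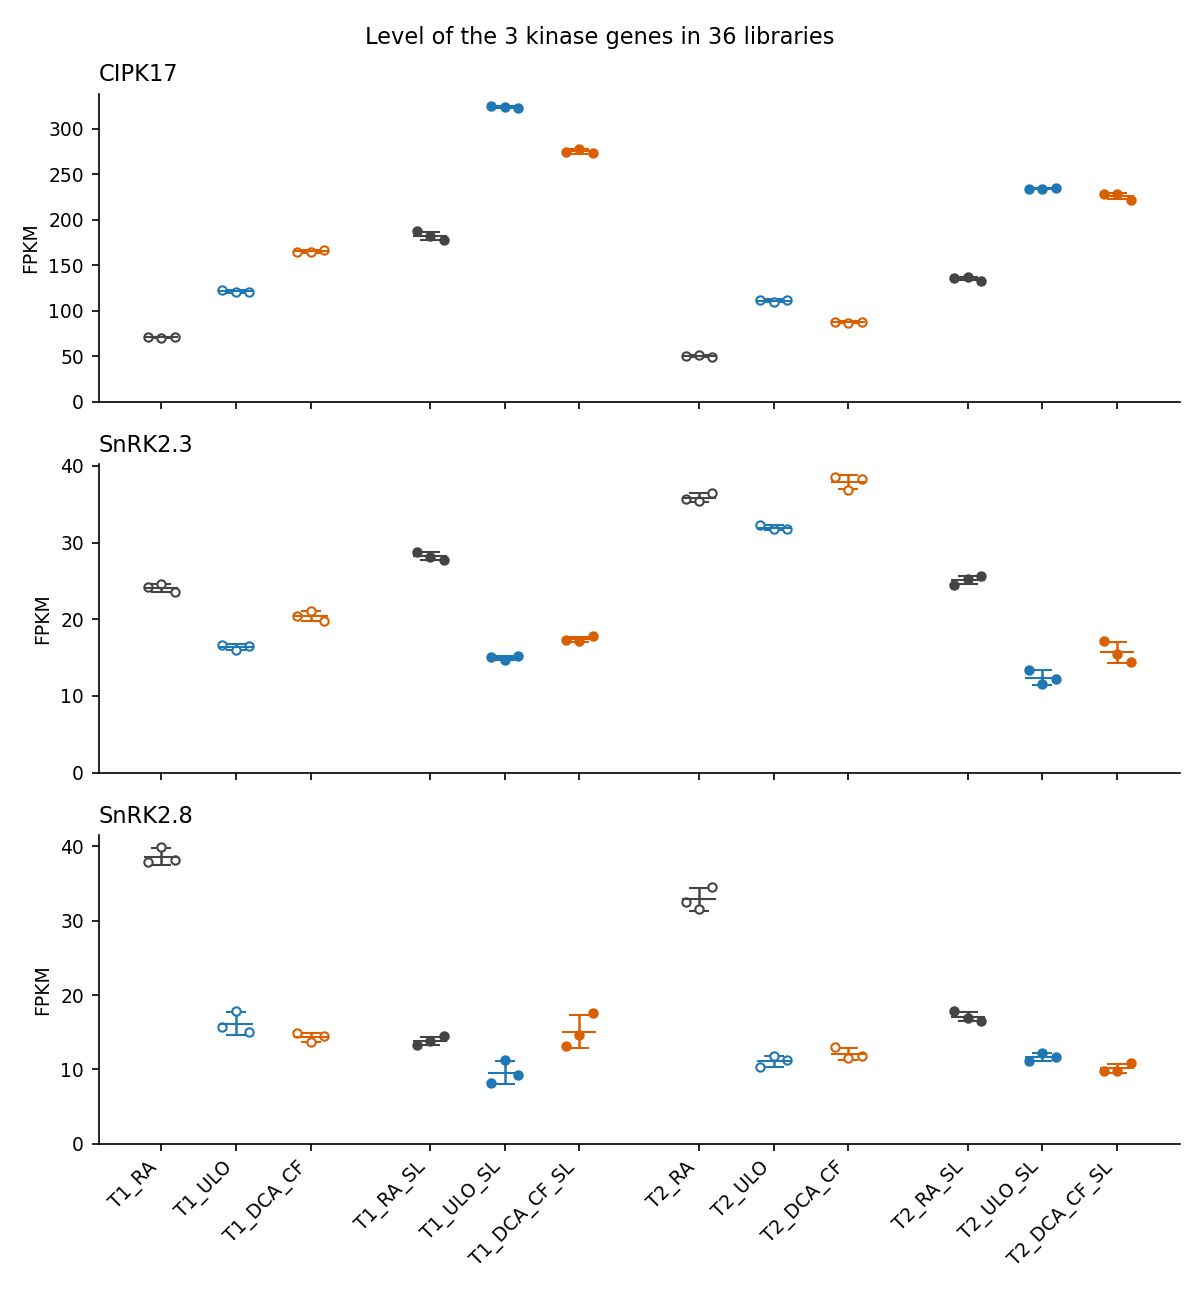
Level of CIPK17, SnRK2.3 and SnRK2.8 (FPKM, linear axes from 0) in each of the 36 libraries, by group; grey is RA, blue ULO and orange DCA_CF, filled points are groups with SL, and bars are the mean ± SD of 3 libraries. CIPK17 is lowest in T1_RA (70.6) and T2_RA (50.1), where SnRK2.8 is highest (38.6 and 32.9). SnRK2.3 is highest in the 3 T2 groups without SL in FPKM as deposited, but RLE factors put T1_RA_SL above T2_ULO.

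SnRK2.3 followed another order, with its highest levels at T2 without SL. In those groups RA libraries had 35.8, 35.4 and 36.5 FPKM, ULO libraries had 32.3, 31.8 and 31.8 FPKM, and DCA_CF libraries had 38.6, 36.9 and 38.3 FPKM. In FPKM as deposited, each of these libraries was above every library of the other 9 groups. That lead depends on the scaling for ULO against RA with SL at T1. RLE (median of ratios) factors were 1.13 in library a of T2_ULO and 0.939 in library a of T1_RA_SL. Division by such factors puts all T1_RA_SL libraries above those of T2_ULO, and with upper quartile factors the 2 groups overlap. With SL at T2, RA libraries had 24.5, 25.2 and 25.6 FPKM, ULO libraries had 13.4, 11.6 and 12.2 FPKM, and DCA_CF libraries had 17.1, 15.5 and 14.4 FPKM. The drop with SL was thus deeper in both low oxygen regimes than in RA at this time, a difference that was not tested.

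At T1 SnRK2.3 was highest in RA. Without SL, RA libraries had 24.2, 24.6 and 23.6 FPKM, ULO libraries had 16.7, 15.9 and 16.5 FPKM, and DCA_CF libraries had 20.5, 21.0 and 19.8 FPKM. The 3 regimes were apart, with ULO the lowest. With SL, RA libraries had 28.8, 28.1 and 27.7 FPKM, ULO libraries had 15.1, 14.7 and 15.2 FPKM, and DCA_CF libraries had 17.3, 17.1 and 17.8 FPKM. The regimes kept this order with SL, and RA was the only regime at T1 whose SL libraries lay above those without SL.

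The order of SnRK2.3 was T2_DCA_CF (37.9 FPKM), T2_RA (35.9), T2_ULO (32.0), T1_RA_SL (28.2), T2_RA_SL (25.1), T1_RA (24.1), T1_DCA_CF (20.4), T1_DCA_CF_SL (17.4), T1_ULO (16.4), T2_DCA_CF_SL (15.7), T1_ULO_SL (15.0) and T2_ULO_SL (12.4). T2_RA_SL and T1_RA overlapped, as did T1_ULO with T2_DCA_CF_SL and T2_DCA_CF_SL with T1_ULO_SL. The top group was 3.06 times the lowest. The log2 range of the SnRK2.3 group means was 1.54, near the median of 1.41 for all tested genes (percentile 55.8). DCA_CF was above ULO in 4 of 4 pairs, by 1.16 to 1.27 times and with no overlap, and ULO was below RA in 4 of 4 pairs. In the limma test of DCA_CF against ULO, 3.69% to 40.9% of all tested genes passed, depending on the state.

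The differences of SnRK2.3 carry a standard error of 0.0435 on the log2 scale. At T2 the SL groups were lower by values of -0.50 in RA, -1.30 in ULO and -1.22 in DCA_CF. At T1 the SL difference was 0.22 in RA, -0.22 in DCA_CF and -0.12 in ULO, and the ULO value changed sign to 0.034 when libraries were scaled by their upper quartile. Without SL, T2 was above T1 by 0.55 in RA, 0.92 in ULO and 0.86 in DCA_CF. With SL the same step was -0.16 in RA, -0.26 in ULO and -0.14 in DCA_CF, where the libraries of the 2 times overlapped. In the comparison with RA, DCA_CF was lower at T1 (-0.23) and with SL (-0.67 at T1, -0.65 at T2), while the T2 difference of 0.078 without SL changed sign to -0.19 with RLE (median of ratios) factors and to -0.057 with upper quartile scaling.

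SnRK2.8 was high in RA without SL and low in the other 10 groups. The T1 libraries of that regime had 37.9, 39.9 and 38.1 FPKM and the T2 libraries had 32.6, 31.5 and 34.6 FPKM. The highest value in any other library was 17.8 FPKM. With SL, RA libraries had 13.3, 13.8 and 14.4 FPKM at T1 and 17.8, 17.0 and 16.5 FPKM at T2. RA libraries with SL thus lay within the range of the low oxygen libraries at T1 and above all of them at T2.

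In low oxygen without SL, SnRK2.8 had 15.7, 17.8 and 15.0 FPKM in ULO and 14.9, 13.6 and 14.4 FPKM in DCA_CF at T1. At T2 the ULO libraries had 10.3, 11.7 and 11.2 FPKM and the DCA_CF libraries had 13.0, 11.5 and 11.7 FPKM. These groups were all below both RA groups without SL, and below their T1 partners. With SL, ULO libraries had 8.10, 11.2 and 9.25 FPKM at T1 and 11.2, 12.1 and 11.7 FPKM at T2, and DCA_CF libraries had 13.1, 14.6 and 17.5 FPKM at T1 and 9.72, 9.77 and 10.9 FPKM at T2. The DCA_CF group with SL at T1 had the widest absolute spread (15.1 ± 2.26 FPKM, SD, n = 3), with library c above the other 2.

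From the top, the SnRK2.8 groups were T1_RA (38.6 FPKM), T2_RA (32.9), T2_RA_SL (17.1), T1_ULO (16.2), T1_DCA_CF_SL (15.1), T1_DCA_CF (14.3), T1_RA_SL (13.8), T2_DCA_CF (12.1), T2_ULO_SL (11.6), T2_ULO (11.1), T2_DCA_CF_SL (10.1) and T1_ULO_SL (9.52). T1_RA, T2_RA and T2_RA_SL did not overlap with each other, nor did T1_RA_SL with T2_DCA_CF, and all other neighbours in this order overlapped. The top group was 4.06 times the lowest. The log2 range of the SnRK2.8 group means was 1.91, against a median of 1.41 for all tested genes (percentile 68.7).

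With a standard error of 0.0870, the SL difference of SnRK2.8 was -1.42 in RA at T1, -0.91 in RA at T2 and -0.71 in ULO at T1. In ULO at T2 (0.068) and DCA_CF at T1 (0.061) the libraries with and without SL overlapped. In DCA_CF at T2 the difference was -0.23, and it turned to 0.038 with RLE factors and to 0.104 with upper quartile scaling. Without SL, ULO was below RA by differences of -1.21 at T1 and -1.49 at T2, and DCA_CF by -1.37 at both times. With SL the differences from RA were -0.51 and -0.52 in ULO and 0.11 and -0.70 in DCA_CF at T1 and T2, and the value of 0.11 came from groups that overlapped.

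**Figure D2:**
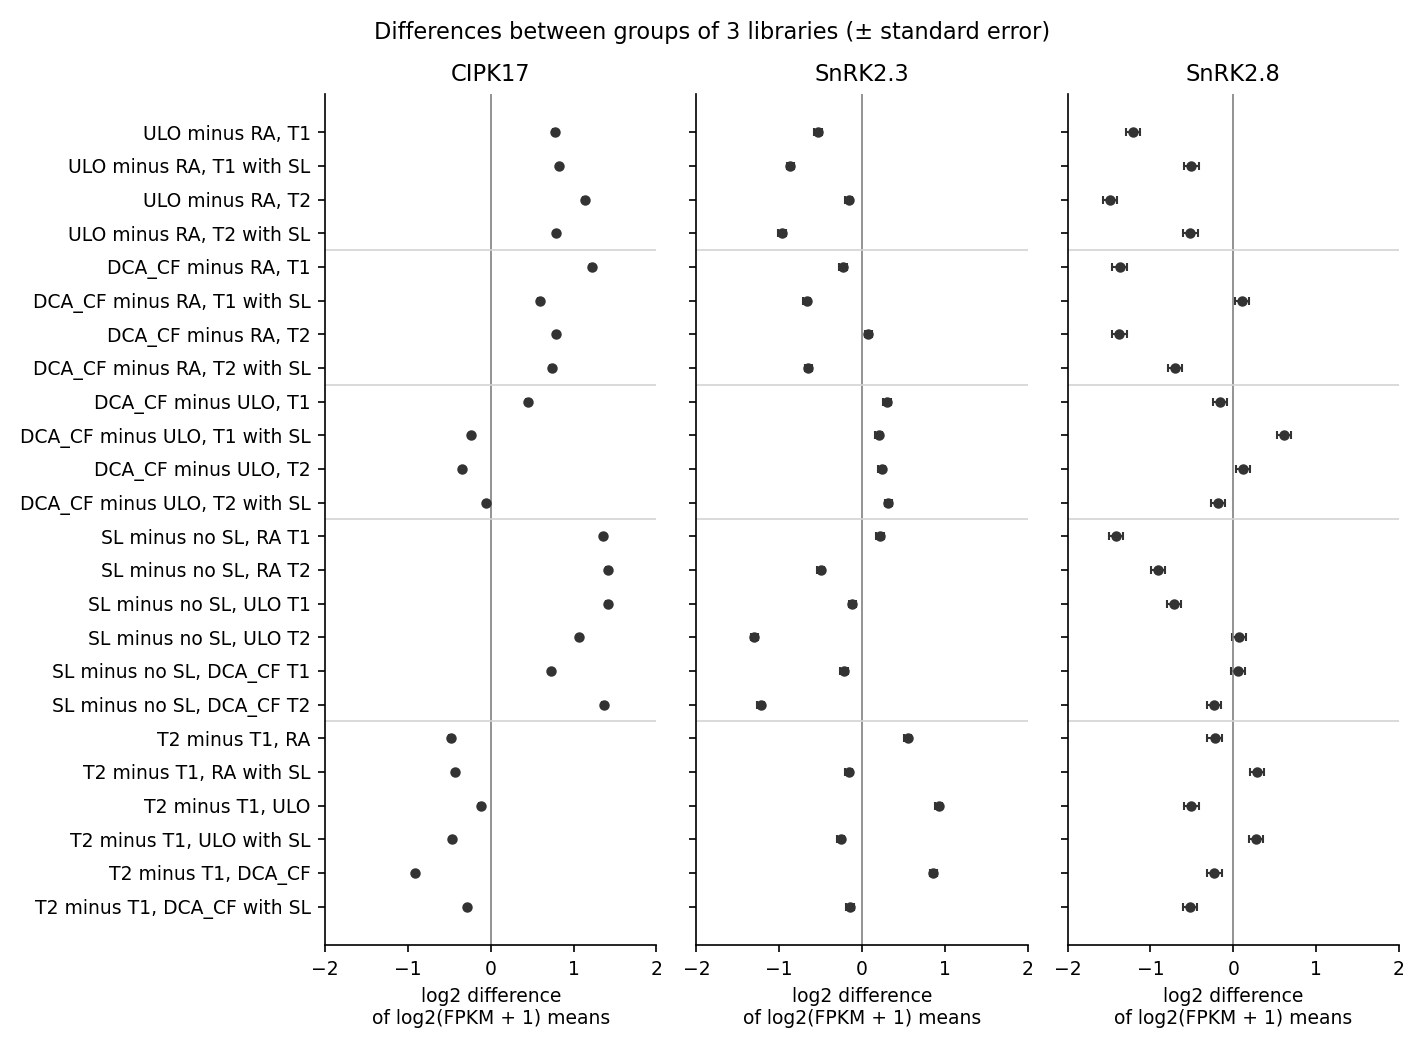
Differences between groups of 3 libraries for the 3 genes, as log2(FPKM + 1) of the first group minus the second; points are differences of means and bars the standard error of the fit over 36 libraries. CIPK17 lies right of 0 in all comparisons of SL and of a low oxygen regime with RA, and left of 0 in all time steps. SnRK2.8 is at -0.91 to -1.49 where a group is set against RA without SL (-0.23 for the time step in RA). The SnRK2.3 values of 0.078 (DCA_CF minus RA, T2) and -0.12 (SL in ULO, T1) change sign with another scaling. So does the SnRK2.8 value of -0.23 (SL in DCA_CF, T2).

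The ratio of SnRK2.3 to SnRK2.8 is free of any scaling between libraries, since both values come from 1 library. It was 0.625 ± 0.0130 (SD, n = 3) in RA at T1 without SL, the only group in which SnRK2.3 was below SnRK2.8 in every library. In RA at T2 the ratio was 1.09 ± 0.0349. It reached 3.15 ± 0.166 in DCA_CF and 2.90 ± 0.222 in ULO at T2 without SL, above all libraries of the other groups, and RA with SL at T1 followed at 2.04 ± 0.120. The other 7 groups ran from 1.02 in ULO at T1 to 1.61 in ULO with SL at T1. FPKM is a value per gene length, so this ratio compares the 2 genes on that scale.

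Over the 12 group means of log2(FPKM + 1), CIPK17 ran against both SnRK2 genes, with Pearson's r of -0.759 with SnRK2.3 and -0.743 with SnRK2.8. The SnRK2 genes had an r of 0.377 with each other. These 12 points share libraries and treatments, and the 3 genes were chosen with their patterns in view, so the values only describe the table.

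Within its own family, CIPK17 had the 2nd highest mean level of 24 CIPK genes that passed the filter of 1 FPKM in at least 3 libraries. It made up 8.35% ± 0.333 (SD, n = 3) of the summed FPKM of 27 CIPK genes in RA at T2 without SL, where it ranked 6th, and 22.2% ± 0.206 in ULO with SL at T1, where CIPK28 alone was above it. In RA with SL at T1 it held 18.9% ± 0.0806 and ranked 1st. In ULO at T1 without SL its level was above that in RA, yet its share of 9.71% was below the 10.9% in RA, because the family sum was 1249 FPKM in ULO and 648 FPKM in RA. The share was higher with SL in each regime at both times: the groups without SL had 8.35% to 13.0%, and those with SL had 13.8% to 22.2%.

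SnRK2.3 had the 3rd highest mean level of 9 SnRK2 genes and SnRK2.8 had the 6th. SnRK2.3 made up 14.6% ± 0.305 of the family sum in RA at T2 without SL and 5.03% ± 0.375 in ULO with SL at T2. SnRK2.8 made up 18.1% ± 0.326 in RA at T1 without SL, where it ranked 2nd, and 13.4% ± 0.661 in RA at T2. In the other 10 groups its share was between 3.83% and 7.33%. The sum of the 9 genes moved little by comparison, from 213 to 297 FPKM, and SnRK2.4 was the gene with the highest level, at 68.4 FPKM in RA at T1 and 168 FPKM in DCA_CF at T1 without SL.

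**Figure D3:**
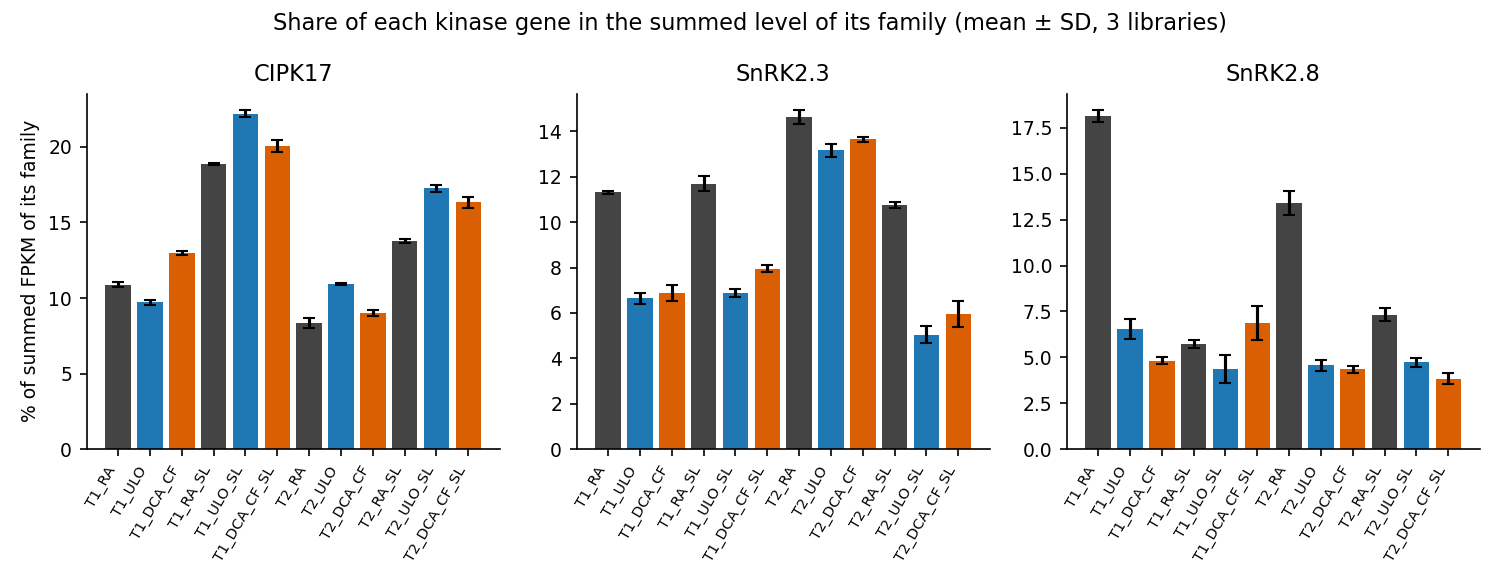
Share of each kinase gene in the summed FPKM of its family (27 CIPK or 9 SnRK2 genes), in percent, as the mean ± SD of 3 libraries for each of the 12 groups; each panel has its own axis from 0. CIPK17 peaks at 22.2% in T1_ULO_SL, SnRK2.3 at 14.6% in T2_RA, and SnRK2.8 at 18.1% in T1_RA.

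The genes whose group means most resembled each kinase gene were taken from 431 named genes with a mean log2 level of at least 2. For CIPK17 these were MF-60 (r = 0.937 over 12 groups), C2H2L6, a zinc finger gene (r = 0.923), and CIPK27 (r = 0.922). CIPK27 was far less abundant, with group means of 6.06 FPKM in RA at T1 to 24.9 FPKM in ULO with SL at T1, the same top group as CIPK17. The other 23 CIPK genes had a median r of 0.161 with CIPK17, from -0.701 for CIPK06 to that of CIPK27, and 15 were above 0. The lowest r of the named genes was -0.866 for ALF5.

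SnRK2.3 was most like AP2D14, an AP2/ERF transcription factor gene (r = 0.90), SCL11, a scarecrow-like gene (r = 0.878), and CDPK, a calcium-dependent protein kinase (r = 0.871). CDPK had 8.69 FPKM in ULO with SL at T2 and 16.1 FPKM in RA at T2, and both ends of AP2D14 fell in these same groups. The lowest r was -0.942 for PG1, a polygalacturonase that takes pectin apart as fruit softens. PG1 stood at 9.34 FPKM in DCA_CF at T2 without SL, where SnRK2.3 was highest, and at 327 FPKM in ULO with SL at T2, where SnRK2.3 was lowest.

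SnRK2.8 was most like TLP6 (r = 0.952), WRKY9, a WRKY transcription factor gene (r = 0.934), and AP2D41, an AP2/ERF gene (r = 0.933). WRKY9 had 41.7 FPKM in RA at T2 and 2.99 FPKM in ULO at T2, both without SL. The lowest r was -0.947 for GID1b, a gibberellin receptor gene, with 7.79 FPKM in RA at T1 and 100.2 FPKM in DCA_CF with SL at T2. Among all other genes tested, 1018 had an r of at least 0.9 with SnRK2.8, 155 with CIPK17 and 33 with SnRK2.3. The pattern of SnRK2.8 was thus shared widely in this table. Within its family SnRK2.8 had its highest r with SnRK2.9 (0.634) and its lowest with SnRK2.6 (-0.883). Replicates of SnRK2.9 were far apart in some groups, such as DCA_CF at T2 (12.5 ± 7.89 FPKM, SD) and ULO at T1 (20.7 ± 6.86 FPKM), both without SL.

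The other genes of these pathways were taken from lists of gene names, from which the 3 genes were left out, and each difference was tested with limma over all 32923 genes at an adjusted p (FDR) of 0.05. The lists hold 26 CIPK genes, of which CIPK01, CIPK12 and CIPK20 were below the filter, 7 SnRK2 genes, and 18 others, of which 15 were tested. These are genes of ABA signalling and breakdown, dehydrins and cold response factors, calcium and MAP kinases and an ion transporter. No CBL is named in the table. A gene described as higher or lower passed that threshold, and values are log2 differences ± SE. The share of all tested genes that passed ranged from 3.69% to 73.8% between comparisons and is given beside each count. The p-values measure the spread between libraries labelled as biological replicates.

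In low oxygen against RA at T1 without SL, 14 of 23 CIPK genes were higher and 7 were lower, and the median of the 23 was 0.52. Of the SnRK2 genes 4 of 7 were higher and 1 was lower, and of all 45 list genes 22 were higher and 17 lower. Of all genes tested 68.2% passed, with a median of 0. CIPK10 was higher by 2.60 ± 0.0402 and CIPK15 by 1.93 ± 0.0412, while CIPK25 was lower (-2.99 ± 0.0706). DHN5, a dehydrin gene of the kind induced by water loss and cold, was lower (-5.22 ± 0.0682). The level of CIPK10 was 7.10 FPKM in RA against 46.5 FPKM in ULO.

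With SL at T1, 10 CIPK genes were higher in low oxygen and 11 were lower, with 2 SnRK2 genes higher and 4 lower, against 50.8% of all genes. The medians were -0.098 for the CIPK genes and 0.043 for all genes. CIPK28 was higher (1.33 ± 0.0273), as was the dehydrin gene DHN2 (1.26 ± 0.0356). CIPK15 was lower here (-1.08 ± 0.0412), the opposite of its sign without SL, and CIPK03 was lower as well (-0.67 ± 0.0303).

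At T2 without SL, 10 CIPK genes were higher in low oxygen and 9 lower, a split that became 6 and 13 with RLE factors and 7 and 11 with upper quartile scaling. The SnRK2 genes split 6 and 1, or 3 and 1 with RLE factors, and all list genes split 23 and 16, or 14 and 22 with RLE and 18 and 19 with upper quartile scaling. Here 71.9% of all genes passed, with a median of 0.22 that fell to 0.042 with RLE factors. CIPK14 (2.19 ± 0.0197) and CIPK28 (2.20 ± 0.0273) were higher by far more than that shift. DHN2 (-2.14 ± 0.0356) and DHN5 (-3.42 ± 0.0682) were lower.

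At T2 with SL, 9 CIPK genes were higher and 8 lower in low oxygen, or 12 and 7 with upper quartile scaling, which moved the median of all genes from -0.032 to 0.076. The SnRK2 genes split 3 and 3, and 49.3% of all genes passed. DHN2 was now higher (3.02 ± 0.0356), as was CIPK31 (1.43 ± 0.0318). CIPK15 (-2.44 ± 0.0412) and DHN8 (-0.47 ± 0.0195) were lower.

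Across these 4 states, CIPK04, CIPK14, CIPK27 and CIPK28 were higher in low oxygen in each, although CIPK27 at T2 without SL no longer passed with RLE factors (0.013). CIPK06, with a mean of only 1.11 FPKM over all libraries, and CIPK32 were lower in each. Of the 23 CIPK genes, 13 passed in both directions among the states. Of all genes tested, 8.44% were higher in all 4 states, 10.5% were lower in all 4 and 26.1% passed in both directions. SnRK2.6 was the SnRK2 gene higher in all 4 states, by 0.50 ± 0.0415 at T1 and 0.82 at T2 without SL, and by 0.18 at both times with SL. CYP707A, which encodes an enzyme that breaks down ABA, was lower at T1 without SL (-0.27 ± 0.105) and higher in the other 3 states, by 1.03 at T1 with SL, 1.33 at T2 and 1.31 at T2 with SL. Its level was near the filter throughout, with a mean of 1.10 FPKM over all libraries and a range of 0 to 3.58 FPKM.

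**Figure D4:**
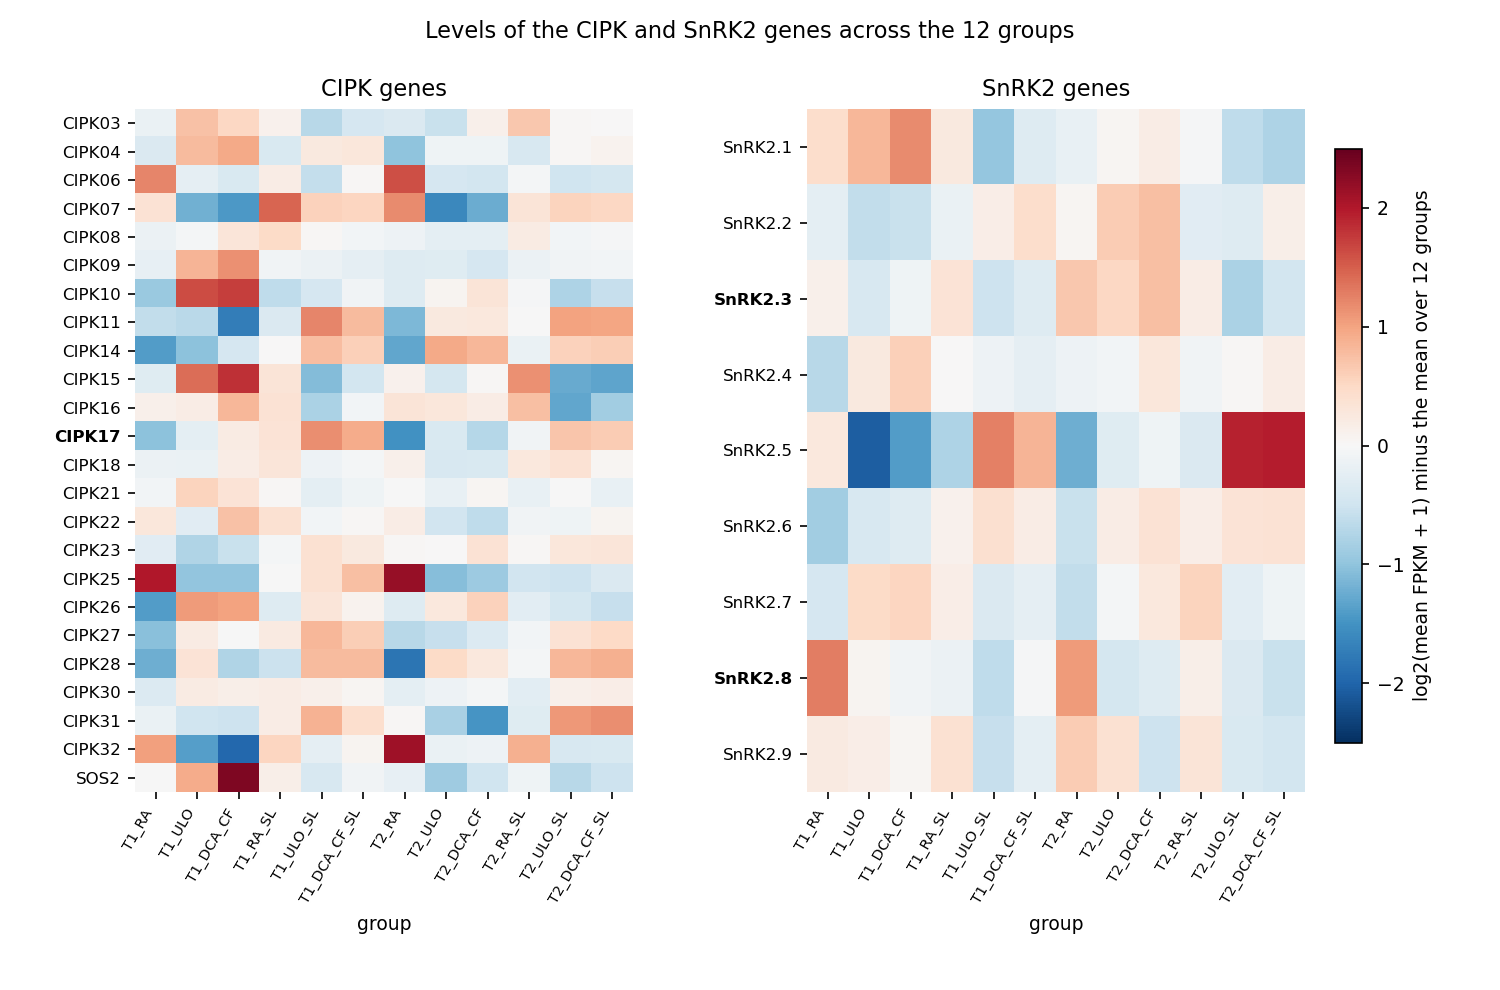
Level of 24 CIPK genes (the gene named SOS2 among them) and 9 SnRK2 genes in the 12 groups, as log2(mean FPKM + 1) minus the gene's own mean over the groups; red is above and blue below that mean. CIPK17, like CIPK27 and CIPK28, is blue in T1_RA and T2_RA and red in the low oxygen groups with SL, SnRK2.8 is red in T1_RA and T2_RA, and SnRK2.5 is red in the low oxygen groups with SL, up to 47.3 FPKM.

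With SL in RA at T1, 15 CIPK genes were higher and 3 lower than without SL, with a median of 0.28, while 61.6% of all genes passed with a median of -0.067. The SnRK2 genes split 3 and 2, or 3 and 1 with either other scaling. CIPK14 was higher (1.41 ± 0.0227), as was CIPK28 (0.69 ± 0.0316). The dehydrin genes DHN2 (-3.79 ± 0.0412) and DHN8 (-1.74 ± 0.0225) were lower. In RA at T2, 11 CIPK genes were higher with SL and 7 lower, with 4 SnRK2 genes higher and 0 lower, and 58.8% of all genes passed. CIPK28 (1.78 ± 0.0316) and CIPK14 (1.15 ± 0.0227) were higher again, and CIPK25 (-2.66 ± 0.0816) and DHN8 (-0.66 ± 0.0225) were lower.

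With SL in low oxygen at T1, 9 CIPK genes were higher and 11 lower, and the SnRK2 genes split 3 and 4 with a median of -0.57, against 72.5% of all genes passing. CIPK11 (2.21 ± 0.0443) and CIPK14 (1.41 ± 0.0160) were higher, and CIPK15 (-2.38 ± 0.0336) and DHN8 (-1.80 ± 0.0159) were lower. SnRK2.5 had the largest SL difference of its family here, from 1.95 FPKM in ULO and 3.65 FPKM in DCA_CF without SL to 28.5 and 21.1 FPKM with SL, and it was higher in the test of both regimes. This gene was chosen after its values were seen.

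With SL in low oxygen at T2, 14 CIPK genes were higher and 6 lower, and 69.7% of all genes passed. The median of all genes was -0.23, and it moved to -0.045 with RLE factors and to -0.0075 with upper quartile scaling. The SnRK2 genes split 2 and 3, or 3 and 2 with either scaling, and all list genes split 21 and 16, or 26 and 11 with RLE and 28 and 11 with upper quartile scaling. DHN2 (4.01 ± 0.0291) and CIPK31 (2.26 ± 0.0260) were higher, and CIPK15 (-1.09 ± 0.0336) and CIPK10 (-0.87 ± 0.0328) were lower. CIPK14, higher with SL in the other states, was lower here, from 154 to 120 FPKM in ULO and 142 to 122 FPKM in DCA_CF. That call depended on scaling: it did not pass with RLE factors (-0.014) and became higher with upper quartile scaling (0.053). CIPK11, CIPK27, CIPK28 and SnRK2.6 were higher with SL in all 4 states, as were 6.87% of all genes, and 14 of the 23 CIPK genes passed in both directions, as did 35.2% of all genes. At T2 in low oxygen, the mean of SnRK2.6 rose with SL in ULO (25.9 to 29.2 FPKM) but not in DCA_CF (29.4 to 29.3 FPKM). MdCPK1, a calcium-dependent protein kinase gene, was lower in all 4, as were 10.4% of all genes, and DHN8 was lower in all 4 except that its value of -0.27 in low oxygen at T2 turned to 0.078 with upper quartile scaling and no longer passed with RLE factors.

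Among the dehydrins and cold response factors, 6 genes were tested. In low oxygen against RA they split 2 higher and 4 lower at T1 (68.2% of all genes passed) and at T2 (71.9%) without SL, 4 and 2 at T1 with SL (50.8%), and 3 and 2 at T2 with SL (49.3%). DHN9 and DHN10 were higher and DHN8 and DREB5-2, a cold and drought response factor gene, were lower in all 4 states. DREB5-2 was lower by values of -2.72 ± 0.0725 at T1 and -2.96 at T2 without SL, and -0.41 and -1.42 with SL. Its level was low, with a mean of 2.04 FPKM over all libraries and a range of 0.0505 to 8.23 FPKM. With SL against without, the 6 genes split 1 and 4 in RA at T1 (61.6%) and T2 (58.8%), 3 and 3 in low oxygen at T1 (72.5%), and 4 and 2 in low oxygen at T2 (69.7%), where DHN8 depends on the scaling as given above.

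Of 6 calcium and MAP kinase genes, 0 were higher and 4 lower in low oxygen at T1 without SL (68.2% of all genes passed), 2 and 2 at T1 with SL (50.8%), 3 and 2 at T2 without SL (71.9%), and 2 and 1 at T2 with SL (49.3%). The 4 of 6 called at T1 without SL and the 3 of 6 at T2 with SL were near the shares of all genes. The calmodulin gene CaM and MPK1, a MAP kinase gene, were among the 3 at T2, and neither passed with RLE or upper quartile scaling. CDPK, the gene most like SnRK2.3 among the kinases named, was lower in low oxygen in all 4 states, from -0.23 ± 0.0927 at T2 without SL to -0.62 at T2 with SL. With SL, 0 of the 6 genes were higher and 4 lower in RA at T1 (61.6%) and T2 (58.8%) and in low oxygen at T2 (69.7%), and 1 was higher and 3 lower in low oxygen at T1 (72.5%). NHX1, which encodes an exchanger of sodium or potassium for protons, was higher in low oxygen at T1 without SL (0.58 ± 0.0545) and at T2 in both SL states (0.45 without and 0.60 with SL), and did not pass at T1 with SL (0.095). ABI3L3, the 1 tested gene of the ABA signalling list, was higher in low oxygen at T1 without SL (0.72 ± 0.0523). It was lower with SL at T1 (-0.16) and at T2 (-0.25), and did not pass at T2 without SL (-0.069). The T2 value with SL no longer passed with upper quartile scaling (-0.098).

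Between the low oxygen regimes fewer genes passed than in low oxygen against RA in the same state. The comparison with RA averages both low oxygen regimes and so rests on more libraries. When DCA_CF was set against ULO at T1 without SL, 9 CIPK genes were higher and 7 lower, with 3 SnRK2 genes higher and 0 lower, against 40.9% of all genes. At T1 with SL, 7 CIPK genes were higher and 6 lower, or 6 and 10 with RLE factors and 6 and 12 with upper quartile scaling, against 31.3% of all genes, and the median of all genes moved from 0.083 to -0.043 with upper quartile scaling. At T2 without SL, 8 were higher and 3 lower, or 8 and 5 with either scaling, against 23.0%, and the SnRK2 genes split 2 and 1, or 1 and 1. At T2 with SL, 1 CIPK gene and 1 SnRK2 gene were higher and 0 of either were lower, against 3.69% of all genes. They were CIPK10 and SnRK2.4 (0.16 ± 0.0423), and neither passed when the 6 compared libraries were fitted alone, with limma's adjusted p of 0.296 and 0.317. That fit called 162 genes in all against 1216, and 1 list gene, DHN8, against 4.

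From T1 to T2 in RA without SL, 10 CIPK genes were higher at T2 and 5 lower, and the SnRK2 genes split 2 and 2, against 48.6% of all genes. In RA with SL, 6 CIPK genes were higher and 10 lower, against 35.5%, and the SnRK2 genes split 2 and 1, or 2 and 2 with either other scaling. In low oxygen without SL, 5 CIPK genes were higher and 17 lower, with a median of -0.39, against 73.8% of all genes with a median of 0.096 that moved to -0.008 with RLE factors. With SL, 5 were higher and 10 lower, or 7 and 9 with upper quartile scaling, against 44.9%. The direction of CIPK17 over time, lower at T2 in 6 of 6 pairs, was also that of most CIPK genes in low oxygen without SL. The SnRK2 genes split 3 and 3 without SL and 2 and 0 with SL in low oxygen.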

How the data were processed

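RNA from the peel of 36 samples was sequenced from non-directional libraries, per the labels' protocols. HISAT2, StringTie and DESeq2 are named, without versions, in the submitters' processing notes. The genome build is not given in the sources used here, so no coordinates or sequences are printed. The deposited table holds FPKM values, 1 column per library, read as FPKM from the values, since they are not whole. A TPM table that lacks some genes would look alike. Columns headed DCA were matched to the DCA_CF samples by time, SL and letter.

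The 3 genes and the gene lists were chosen with earlier results of these data known. The fit used log2(FPKM + 1), a scale that understates the change of low genes. The filter of 1 FPKM in 3 or more libraries left 32923 of 57423 genes. A mean per group was fitted over 36 libraries with limma 3.58.1 in R 4.3.3 (eBayes with trend), with Benjamini-Hochberg adjustment over all genes and an FDR of 0.05, and with no further scaling. The DCA_CF and ULO libraries of a time and SL state were averaged for low oxygen. Count models were not used, since the values are not counts.

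The rule for named genes takes, for each kinase gene, the 3 named genes of highest and the 1 of lowest correlation over group means, and, in each low oxygen and SL contrast, up to 2 list genes per direction of smallest p. Genes that passed in all states are named too, and genes named beyond the rule are examples. Names come from the table and a RefSeq gene table, in which 34074 identifiers were found. No protein table was used, so relatives by protein sequence were not analysed here. No 2 libraries of a group held identical values, and none was counted as a duplicate. The fit was tested on simulated data. Alternatives were another pseudocount (0.1), no filter or a filter of 5 FPKM, RLE and upper quartile scaling, a replicate block by letter, separate fits for each comparison and omission of each library in turn.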

Additional observations from a re-analysis of the deposited data

Results flagged for a closer look

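In the following pairs of comparisons, a kinase gene differed in opposite directions with no overlap of the libraries in either. Overlap was judged on FPKM as deposited, and the share of all genes with such a pair was not computed. Each value is the first log2 difference minus the second, and the difference between them was not tested.

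For CIPK17, DCA_CF minus ULO at T1 was 0.44 without SL and -0.24 with SL, 0.68 apart. Against the T2 value without SL of -0.34, it was 0.79 apart.

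For SnRK2.3, the SL difference in RA at T1 (0.22) was 0.71 above that in RA at T2 (-0.50), 0.44 above that in DCA_CF at T1 (-0.22) and 0.34 above that in ULO at T1 (-0.12), the last of which turned positive with upper quartile scaling. Its step from T1 to T2 was 0.71 apart between RA without SL (0.55) and with SL (-0.16), and 1.18 apart between ULO without SL (0.92) and with SL (-0.26). DCA_CF minus RA for this gene was -0.23 at T1 and 0.078 at T2, a gap of -0.31, and 0.73 apart at T2 between the state without SL and that with SL (-0.65). The T2 value of 0.078 turned negative with either other scaling.

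For SnRK2.8, DCA_CF minus ULO at T1 was -0.16 without SL and 0.61 with SL, a gap of -0.77. The value with SL at T1 was 0.80 above the T2 value with SL (-0.19). The value of -0.16 had an SE of 0.0870, and its nearest libraries had 14.87 FPKM in DCA_CF and 14.95 FPKM in ULO. Division by their RLE factors of 0.986 and 1.01 makes these libraries overlap. The step from T1 to T2 in RA was -0.23 without SL and 0.29 with SL, a gap of -0.51. With SL, that step in RA was 0.81 above that in DCA_CF (-0.52).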

How the results depend on the processing

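The 24 differences of CIPK17 kept their sign under every alternative. Scaling moved them by up to 0.29 (RLE) and 0.37 (upper quartile), leaving out a library by up to 0.019 and a pseudocount of 0.1 by up to 0.016. Among comparisons whose libraries did not overlap, signs turned for SnRK2.3, DCA_CF minus RA, T2 (-0.19 with RLE, -0.057 with upper quartile), for SnRK2.3, SL minus no SL, ULO T1 (0.034 with upper quartile), and for SnRK2.8, SL minus no SL, DCA_CF T2 (0.038 with RLE, 0.104 with upper quartile). Comparisons with overlapping libraries were not screened for a change of sign, so their small differences may turn as well. For DCA_CF minus ULO, T2 with SL, a fit of the compared libraries alone called 162 genes, against 1216 in the fit of all libraries, and 1 list gene against 4; that fit rests on 6 libraries. The other counts of genes called stayed within 1.5 times under each alternative.

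Letters a, b and c are shared by all groups, and whether they pair the libraries was not tested. Residuals of the same letter correlated at a mean of 0.0029, and those of different letters at -0.0015. Of 36 libraries, 17 correlated best with a library of the same letter, a count for which no expected value was computed. With the letter as a replicate block, genes called in low oxygen minus RA, T1 numbered 22418 against 22449, and the largest change in any comparison was 64 genes. CIPK18 was the list gene that no longer passed (SL in RA at T1, 0.42). Counts for relatives by protein sequence were not run. Depth is unknown, so no counting limit can be given.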
